A study of Mus musculus with 30 samples.

Results

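The cytosolic ribosomal protein genes are here 66 genes, 43 of the large subunit and 23 of the small by symbol. Each had at least 1 probe carrying a single gene symbol of the kind given to proteins of the cytoplasmic ribosome. The like-named Rpl7l1, Rpl22l1, Rpl39l and Rps27l also matched. The 66 genes were chosen by symbol alone, with pseudogenes and the Rps6k kinases left out, from 7151 genes with a probe of 1 symbol, by a rule that uses no measured value. They were read by 146 cDNA probes: 25 genes had 1 probe, 41 had several, and Rpsa and Rpl4 had the most, 6 each. A further 7 ribosomal protein genes, Rpl12, Rpl14, Rpl22, Rps2, Rps3, Rps16 and Rps27, had only probes that carried several symbols and were not analysed here.

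The ribosome translates mRNA into protein. Its small subunit decodes the message and its large subunit joins the amino acids. Each subunit is assembled in the nucleolus from ribosomal RNA and proteins made in near equal numbers, and the mRNAs of these proteins belong to the most abundant of a cell. In mammals most of them begin with a C followed by a run of C and T (U in RNA), the terminal oligopyrimidine tract, through which mTOR signalling governs their translation. In neurons, ribosomes also lie in dendrites, where local translation supplies synapses.

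RNA came from the cerebral cortex and the hippocampus of mice that were 12 weeks old, on a mixed genetic background. The groups were COX-1-/- mice with wild-type mice of the COX-1 line, and COX-2-/- and heterozygous COX-2 mice with wild-type mice of the COX-2 line, in each region, with 3 arrays in each of the 10 groups. COX-1 and COX-2 are the cyclooxygenases that turn arachidonic acid into prostaglandin H2. They were absent from the whole body of the null mice and through all of development. Null mice were born to null fathers and heterozygous mothers, and wild-type mice to wild-type parents, so that genotype and parentage cannot be told apart. The methods do not describe heterozygous COX-2 mice as a group, so their parentage is not known here. The methods name 3 mice per group and also arrays run in triplicate for each sample, and do not settle which of these the 3 arrays of a group are, so each p-value below measures the spread between arrays, which may be technical. Each value is a Z score, the natural log intensity of a probe minus the mean of its array, divided by the SD of its array, and a gene's value is the mean over its probes. A Z above 0 therefore lies above the array mean, which the study took as background, and a difference in Z is in SD units of an array and is not a fold change.

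Over the ribosomal protein genes, arrays of 1 group correlated with r of 0.988 to 0.996. The first part of the table was a copy, value by value, in 5 of 6 arrays from the COX-1 cortex groups. Every comparison that draws on these groups was therefore restricted to the remaining probes, which read 54 of the 66 genes. Few cell type markers were on the array. Of 8 cortex and 8 hippocampus markers listed, Cux1 and Zbtb20 had a probe and both had a median below 0 in both regions, so the labelled regions could not be checked. Ttr, a marker of choroid plexus, differed widely between arrays of 1 group: in the hippocampus it lay at 2.01, 2.17 and 0.247 in COX-2-/-, at 0.833, 1.90 and 0.246 in heterozygous and at 2.36, 1.97 and 0.402 in COX-2 wild-type mice, and at 2.36, 1.59 and 0.326 in COX-1-/- and 1.29, 1.66 and 1.89 in COX-1 wild-type mice. In the cortex of the COX-2 line it lay between 0.170 and 0.447 on 8 of the 9 arrays and at 1.59 on 1 heterozygous array. Its part in the results below was not tested. In tissue RNA, fewer cells of a type and less RNA per cell cannot be told apart. Probes of cDNA can also bind mRNA of near-identical paralogs and processed pseudogenes, of which ribosomal protein genes have many, so each value is uncertain to that degree.

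Start sites of 52 of the 66 genes were found in the RefSeq promoter table (GRCm38.p6). The window from 20 bases before to 30 bases after each start was searched, on the strand of the gene, for an unbroken run of at least 8 bases that are each C or T, and a run that reached into the window was taken whole. Such a run was found at 40 of 62 starts of ribosomal protein genes (64.5%) and at 7718 of 32851 starts of all genes (23.5%). The windows of 30 bases below belong to genes that the results turn on, and show the longest run of C or T in capitals, 5′ to 3′ on the strand of the gene. They are Rps15a (chr7:118116143-118116172, minus strand), Rpl38 (chr11:114668568-114668597, plus strand), Rpl31 (chr1:39367824-39367853, plus strand), Rpl11 (chr4:136053358-136053387, minus strand), Rps7 (chr12:28635911-28635940, minus strand), Rpl9 (chr5:65391383-65391412, minus strand) and, with shorter runs, Rpsa (chr9:120127774-120127803, plus strand) and Rps19 (chr7:24884907-24884936, plus strand).
Rps15a: gcccggcccaCTCTCTTTCTgccatcttcc
Rpl38: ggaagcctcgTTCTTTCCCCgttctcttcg
Rpl31: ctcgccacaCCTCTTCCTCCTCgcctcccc
Rpl11: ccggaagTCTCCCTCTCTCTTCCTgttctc
Rps7: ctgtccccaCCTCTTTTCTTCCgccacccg
Rpl9: acgaaagacgTTCTCTCTTTgccccatcta
Rpsa: tccggccgcccgTCCTTTCgcgctacccgg
Rps19: gggtgtggagggCTCTCCCacgcggtcacc
The runs shown span 17 bases in Rpl11, 13 in Rpl31 and Rps7, 10 in Rps15a, Rpl38 and Rpl9, and 7 in Rpsa and Rps19. Positions count from the annotated start, with bases before it negative. The first base of the run lies at 14 in Rpl11, -18 in Rpl31, 23 in Rps7 and -15 in Rps15a. It lies at -2 in Rpl38, 30 in Rpl9, 21 in Rpsa and 7 in Rps19. None of the runs begins at the annotated start, and whether they are terminal oligopyrimidine tracts was not tested. The runs are given as a description of the genes.

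Few ribosomal protein genes were called in the comparisons with wild-type mice, and few of all genes were. Genes were called in 2 ways. The first was the rule of the study, applied to gene means: mean Z above 0, Z test P under 0.05 and a z ratio beyond 1.5. The z ratio was computed here as the difference divided by the SD of all differences. The methods of the study name the SD of all genes on an array instead. The second was limma with Benjamini-Hochberg adjustment at 0.05 over all genes with a mean Z above 0. In the 6 comparisons with wild-type mice, 45 to 53 of the ribosomal protein genes passed the filter. By the rule, 0 of 45 were called in the cortex of COX-1-/- mice (3.95% of all genes tested), 0 of 53 in that of COX-2-/- mice (4.02%) and 0 of 53 in that of heterozygous COX-2 mice (3.21%). In the hippocampus the rule called 1 of 52 in COX-1-/- mice (4.46% of all genes), 0 of 53 in COX-2-/- mice (4%) and 1 of 53 in heterozygous COX-2 mice (6.27%). These were Rpl36a and Rps15a. The counts depended on averaging over probes. With the probe of the highest mean per gene instead, the rule called 2 in COX-2-/- cortex and 2 in heterozygous cortex. In the hippocampus this setting gave 2 in COX-2-/- and 6 in heterozygous mice. The share of all genes called in that setting is not given here. limma called 0 ribosomal protein genes in each of the 6 comparisons, against 1.75%, 0% and 0.119% of all genes in the cortex of COX-1-/-, COX-2-/- and heterozygous mice and 0.991%, 0% and 3.86% in the hippocampus of the same genotypes. At an unadjusted limma p under 0.05 there were 7, 9 and 6 ribosomal protein genes in the cortex and 4, 3 and 11 in the hippocampus, in the same order. As shares of those tested these were 15.6%, 17%, 11.3%, 7.69%, 5.66% and 20.8%, against 17.7%, 12.7%, 10.1%, 17.6%, 14.0% and 20.3% of all genes.

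The direction of the small differences was uneven in some comparisons. In the cortex, 48 of 66 ribosomal protein genes lay higher in COX-2-/- than in wild-type mice (median difference 0.0360, against 0.00365 over all genes), and 47 of 66 lay higher in heterozygous mice (0.0250, against 0.00854). These comparisons share the 3 wild-type arrays. For loss of COX-1 the cortex had 33 of 54 higher (0.0156, against -0.000152 over all genes), and the median was 0.00892 with median centring and 0.00986 after quantile normalization. In the hippocampus the counts were 36 of 66 in COX-1-/- mice (0.00241, against -0.00638, but 27 of 66 and -0.00742 after a running median over neighbouring rows was taken off), 34 of 66 in COX-2-/- mice (0.00397, against 0.00387) and 22 of 66 in heterozygous mice (-0.0232, against -0.00607). Large and small subunit genes had medians of 0.0357 and 0.0502 in the cortex of COX-2-/- mice and of -0.0254 and -0.0219 in the hippocampus of heterozygous mice. They were 0.0298 and -0.00207 in the cortex of COX-1-/- mice, 0.0244 and 0.0345 in that of heterozygous mice, and 0.00287 and 0.000880 in COX-1-/- and -0.000201 and 0.0212 in COX-2-/- hippocampus. The 3 arrays of one group lay wholly above or below the 3 of the other for 7 of 54 genes in the cortex of COX-1-/- mice (18.2% of all genes did so), 16 and 13 of 66 in the cortex of COX-2-/- and heterozygous mice (17.2% and 15.7%), and 12, 6 and 24 of 66 in the hippocampus of COX-1-/-, COX-2-/- and heterozygous mice (19.9%, 16.4% and 30%).

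**Figure D1:**
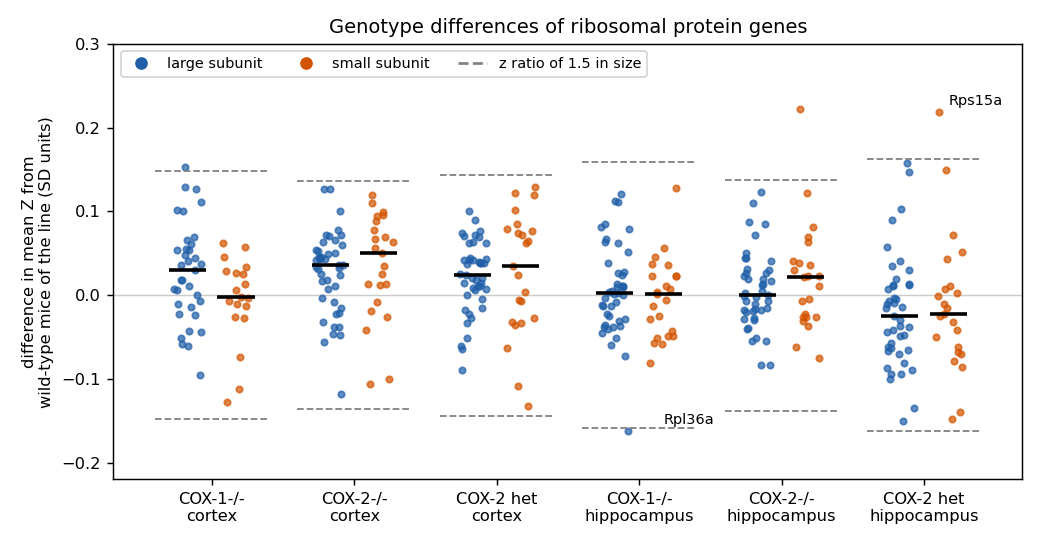
Difference in mean Z (SD units of an array) from wild-type mice of the line for each ribosomal protein gene, in the 6 genotype comparisons, with bars at the median of each subunit and dashed lines where the z ratio is 1.5 in size. Genes called by the rule of the study are named, and most points lie within 0.15 of 0.

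Rps15a, a protein of the small subunit, was the gene with the highest difference in the hippocampus of all 3 mutant genotypes. In heterozygous COX-2 mice it lay at 0.633, 0.652 and 0.731, against 0.430, 0.450 and 0.478 in wild-type mice, with no overlap. The difference was 0.22 ± 0.071 (SE, n = 3 each), with a z ratio of 2.03 and a limma adjusted p of 0.0914. In COX-2-/- mice, set against the same wild-type arrays, the values were 0.498, 0.618 and 0.909. Here the difference was again 0.22, but the spread was wide, and with a Z test P of 0.0699 and a limma adjusted p of 0.204 the gene was not called. In COX-1-/- mice Rps15a lay at 0.573, 0.650 and 0.615, against 0.516, 0.520 and 0.420 in wild-type mice of that line (difference 0.13, z ratio 1.21, limma adjusted p = 0.366). In the cortex it lay at 0.505, 0.471 and 0.467 in COX-2-/- mice, at 0.573, 0.520 and 0.555 in heterozygous mice and at 0.528, 0.594 and 0.620 in wild-type mice, so that COX-2-/- arrays were the lowest there (difference -0.10, limma adjusted p = 0.323). The difference between its COX-2-/- effect in hippocampus and that in cortex was 0.32, with a limma adjusted p of 0.0591.

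Rpl36a, a protein of the large subunit with a near-identical paralog, was the gene called lower in the hippocampus of COX-1-/- mice. It lay at 1.19, 1.14 and 1.12, against 1.43, 1.33 and 1.16 in wild-type mice, so that the groups overlapped in 1 array. The difference was -0.16 ± 0.057 (SE, n = 3 each), with a z ratio of -1.53 and a limma adjusted p of 0.151. After subtraction of a running median over neighbouring rows of the table, the difference shrank to -0.013. Row order was taken to stand for position on the membrane, which the labels do not give.

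Rpsa, which codes for a small subunit protein also known as the precursor of a laminin receptor, differed in opposite directions in the 2 regions of heterozygous COX-2 mice. In the hippocampus it lay at 0.359, 0.395 and 0.342 in heterozygous mice, against 0.440, 0.459 and 0.452 in wild-type mice. In the cortex it lay at 0.458, 0.452 and 0.487 in heterozygous mice, against 0.348, 0.338 and 0.345 in wild-type mice. The groups did not overlap in either region. Neither comparison passed limma on its own (adjusted p = 0.231 in the hippocampus and 0.205 in the cortex), but the effect in hippocampus minus that in cortex did, at -0.21 ± 0.048 (SE, adjusted p = 0.0155). COX-2-/- mice lay at 0.425, 0.453 and 0.436 in the cortex, above the same wild-type arrays, and at 0.408, 0.352 and 0.482 in the hippocampus, where they overlapped them. For these mice the difference between regions was -0.13 (adjusted p = 0.123).

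Rps14, a small subunit protein whose loss underlies the anaemia of the human 5q deletion, gave the other such difference. In the hippocampus it lay at 0.0855, 0.108 and -0.0313 in heterozygous mice, against 0.211, 0.236 and 0.135 in wild-type mice. In the cortex it lay at 0.142, 0.105 and 0.175 in heterozygous mice, against 0.0763, 0.0820 and 0.0423 in wild-type mice. The effect in hippocampus minus that in cortex was -0.21 ± 0.057 (SE, limma adjusted p = 0.0355). Rpsa and Rps14 were 2 of 53 ribosomal protein genes with a heterozygous effect that differed between regions, against 5.29% of all genes, a share no higher than the background. Without the heterozygous hippocampus array of replicate 3, on which Rps14 had its lowest value and Ttr its lowest value of the group, limma called 0 of them. The COX-2-/- effect differed between regions for 0 of 53 (2.61% of all genes), with 13 at an unadjusted p under 0.05 (24.5%, against 23.1%). The effects of COX-1 and COX-2 loss differed from each other for 0 of 45 in the cortex (0.549% of all genes) and 0 of 53 in the hippocampus (0%), with 2 in each at an unadjusted p under 0.05 (4.44% against 12.9% in the cortex and 3.77% against 7.94% in the hippocampus).

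**Figure D2:**
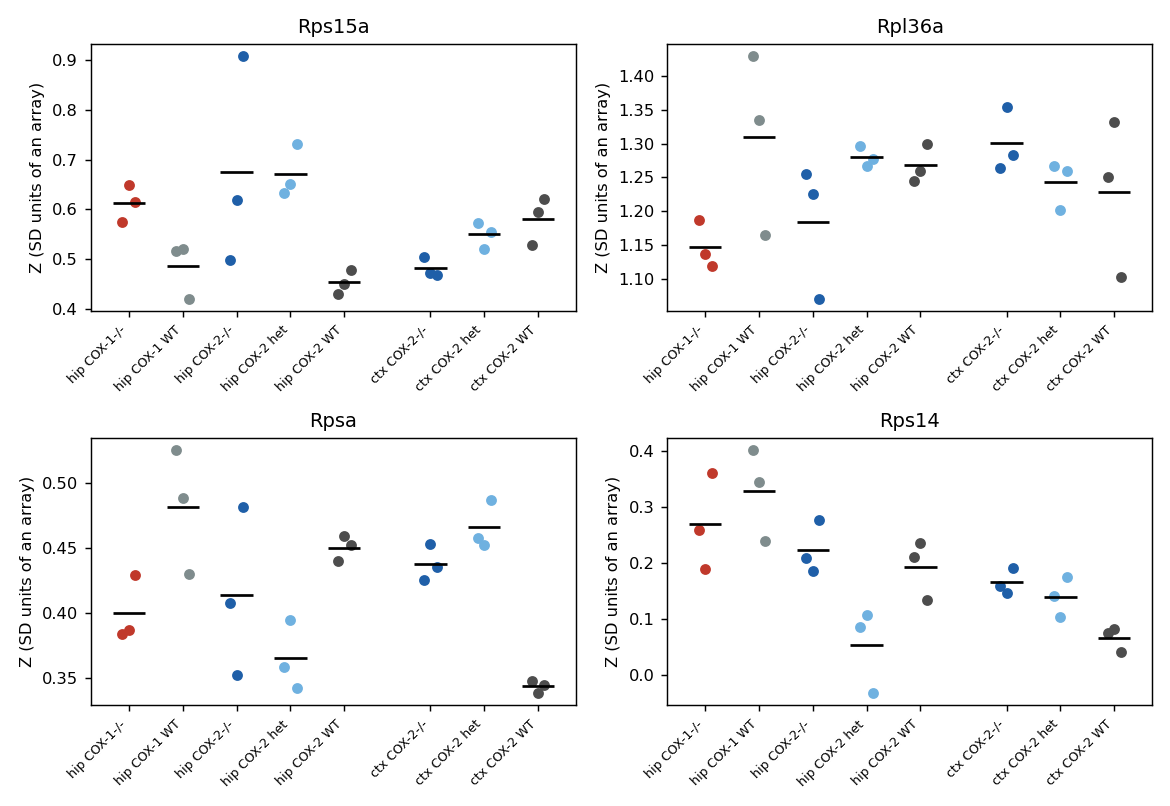
Z score (SD units of an array) of Rps15a, Rpl36a, Rpsa and Rps14 on each array, with bars at the group mean of 3 arrays, for hippocampus (hip) and for the cortex (ctx) of the COX-2 line, on axes that do not start at 0. Rps15a was highest in the hippocampus of 1 COX-2-/- array (0.909), and the heterozygous arrays of Rpsa lay below wild type in hippocampus and above it in cortex.

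Among the remaining differences in the cortex of COX-2-/- mice the highest were those of Rpl3, which lies at the peptidyl transferase centre of the large subunit, and Rpl23a, which lies at the exit of its tunnel. Rpl3 lay at 0.236, 0.332 and 0.352, against 0.172, 0.146 and 0.220 in wild-type mice. Rpl23a lay at 0.506, 0.584 and 0.526, against 0.388, 0.401 and 0.446 in wild-type mice. Both differences were 0.13 with no overlap, and both missed the z ratio of 1.5 and the limma threshold (adjusted p = 0.249 for Rpl3 and 0.205 for Rpl23a). Rps26, of the mRNA exit channel, followed at 0.12, and the lowest differences were those of Rpl30 (-0.12), Rps23 (-0.11) and Rps15a (-0.10). In heterozygous mice the cortex differences ran up to 0.13 for Rps18, 0.12 for Rpsa and 0.12 for Rps28. Rps18 and Rps28 had a mean Z below 0 here and did not pass the filter. The lowest differences in heterozygous cortex were -0.13 for Rps19, -0.11 for Rps23 and -0.090 for Rpl39. Rps19, required for maturation of small subunit RNA, lay at 0.339, 0.432 and 0.423 in these mice, against 0.555, 0.513 and 0.523 in wild-type mice. In the cortex of COX-1-/- mice the differences reached 0.15 for Rpl35a, 0.13 for Rpl19 and 0.13 for Rpl31, with -0.13 for Rps9, whose mean Z was below 0, -0.11 for Rps23 and -0.096 for Rpl10a. Rpl35a had a z ratio of 1.56 but missed the Z test, and Rpl31 had the smallest limma adjusted p of these genes, 0.117.

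In the hippocampus the heterozygous COX-2 mice had the most differences at an unadjusted limma p under 0.05, 11 of 53 (20.8%), a share near the 20.3% of all genes. Rpl30, a large subunit protein, lay at 1.30, 1.26 and 1.25, against 1.08, 1.14 and 1.11 in wild-type mice, with no overlap. Its difference of 0.16 had the smallest limma adjusted p of a ribosomal protein gene in the genotype comparisons, 0.0637. Rpl32, also of the large subunit, lay at 0.664, 0.705 and 0.690, against 0.491, 0.566 and 0.562 in wild-type mice (difference 0.15, limma adjusted p = 0.0682). Rps27l, a paralog of Rps27 whose mean Z was below 0, differed by 0.15. The lowest differences were those of Rpl9 (-0.15), Rps20 (-0.15) and Rps14 (-0.14), with limma adjusted p of 0.165 for Rpl9 and 0.151 for Rps14. The mean Z of Rps20 was below 0. In COX-2-/- mice the highest after Rps15a were Rpl39l (0.12) and Rps18 (0.12), the latter with a mean Z below 0. The lowest in COX-2-/- mice were Rpl36a (-0.084), Rpl36 (-0.083) and Rps7 (-0.075). In COX-1-/- mice Rpl9 (0.12) and Rpl7l1 (0.11, with a mean Z below 0) followed Rps15a, and Rpsa (-0.081) and Rpl11 (-0.072) followed Rpl36a.

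Calls made on single probes were set beside the other probes of the same gene. Over the 6 genotype comparisons, the rule called 13 probes of 11 ribosomal protein genes a total of 17 times. In 15 of these calls the gene had at least 1 other probe above background, 30 in all, of which 22 differed in the same direction and 0 met the rule. The same counts over all genes were not computed. Since 2.71% to 6.21% of all probes above background met the rule, 0 of 30 lies near that share. By comparison, the rule called 0 of 73 probes above background in the cortex of COX-1-/- mice (2.71% of all such probes), 3 of 114 in that of COX-2-/- mice (4.32%), 2 of 115 in that of heterozygous mice (3.26%), 2 of 113 in the hippocampus of COX-1-/- mice (4.8%), 4 of 121 in that of COX-2-/- mice (4.09%) and 6 of 120 in that of heterozygous mice (6.21%). limma called 7 of 120 probes in the hippocampus of heterozygous mice, against 5.3% of all probes above background. It called 0 in the other 5 comparisons, against 0.488%, 0% and 0% of all probes in the cortex of COX-1-/-, COX-2-/- and heterozygous mice and 1.91% and 0% in COX-1-/- and COX-2-/- hippocampus. Where a gene had several probes above background, all of them differed in the same direction for 15 of 27 genes in the cortex of COX-2-/- mice and 7 of 28 in their hippocampus, against 50.4% and 45.5% of all genes with several such probes.

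The probe of Rpsa in row 8405 of the table was called in 3 comparisons. In the cortex it lay at 1.37, 1.42 and 1.27 in COX-2-/- mice and at 1.26, 1.31 and 1.39 in heterozygous mice, against 1.18, 1.08 and 0.986 in wild-type mice, with z ratios of 2.67 and 2.21. In the hippocampus it lay at 0.9996, 1.06 and 0.931 in heterozygous mice, against 1.23, 1.35 and 1.19 in wild-type mice (z ratio -2.19, limma adjusted p = 0.0182). The other 4 Rpsa probes above background took the same direction each time, with z ratios between 0.137 and 0.890, between 0.871 and 1.24, and between -0.603 and -0.230. The 2 probes of Rps15a, in rows 7289 and 7333, also took the same direction in the hippocampus. In heterozygous mice the probe in row 7289 lay at 0.843, 0.902 and 0.963, against 0.596, 0.608 and 0.660 in wild-type mice (z ratio 2.36, limma adjusted p = 0.0487), and the other had a z ratio of 1.31. For Rpl17, whose protein lines the exit tunnel, the probe in row 1526 lay at 1.89, 2.02 and 1.94 in the hippocampus of heterozygous mice, against 1.76, 1.73 and 1.72 in wild-type mice (z ratio 1.81), while the other Rpl17 probe had a z ratio of -1.48, so that the mean over both differed by 0.020.

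For Rpl23a the probe in row 14285 lay at 0.968, 0.996 and 0.934 in the cortex of COX-2-/- mice, against 0.671, 0.729 and 0.794 in wild-type mice (z ratio 2.32). In the hippocampus the same probe lay at 0.905, 0.755 and 0.751 in COX-2-/- mice, against 0.955, 1.02 and 0.926 in wild-type mice (z ratio -1.55), where the other 2 Rpl23a probes had z ratios of 0.359 and 0.365. The remaining calls in the cortex were those of 1 probe each of Rpl15 in COX-2-/- mice and Rpl29 in heterozygous mice, both higher. In the hippocampus they were Rpl41 (lower) and Rps15a (row 7333, higher) in COX-1-/- mice, Rpl17 and Rpl32 (higher) and Rps15 (lower) in COX-2-/- mice, and Rpl32 (higher), Rps14 and Rps20 (lower) in heterozygous mice. limma also called a probe of Rpl5, a partner of 5S ribosomal RNA, at 0.498, 0.565 and 0.554 in heterozygous hippocampus, against 0.731, 0.679 and 0.737 in wild-type hippocampus (adjusted p = 0.0268). As means over probes, Rpl41 and Rps15 differed from wild type by no more than 0.062 in size in any genotype comparison.

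**Figure D3:**
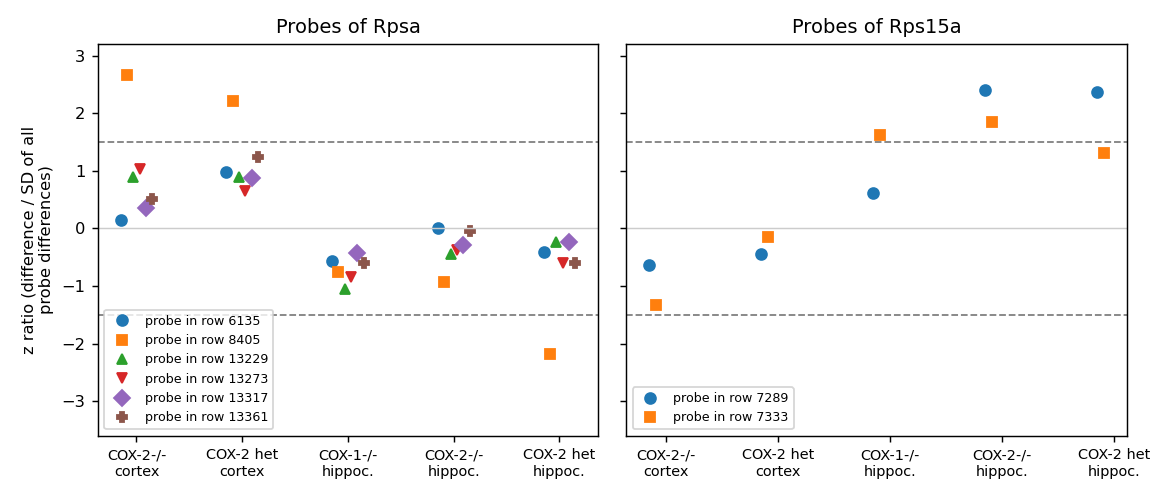
z ratio (difference in Z from wild-type mice of the line divided by the SD of all probe differences) of each probe of Rpsa (6 probes) and Rps15a (2 probes) in 5 genotype comparisons, with dashed lines at 1.5 in size, and with each probe named by its row in the table. The Rpsa probe in row 8405 reached 2.67 in the cortex of COX-2-/- mice while the others stayed between the lines.

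The mean level of ribosomal protein genes lay higher in the hippocampus than in the cortex in each of the 5 genotypes, with the smallest difference in heterozygous mice. Taken over arrays, the mean over the 54 genes that could be compared in all genotypes lay between 0.452 and 0.516 on the 15 hippocampus arrays (median 0.489) and between 0.424 and 0.480 on the 15 cortex arrays (median 0.446). Of the hippocampus arrays 11 lay above every cortex array, and 9 cortex arrays lay below every hippocampus array. The group means were 0.487 ± 0.016 in hippocampus and 0.444 ± 0.020 in cortex of COX-1-/- mice (SD, n = 3 each), 0.480 ± 0.014 and 0.428 ± 0.0062 in COX-1 wild-type mice, 0.499 ± 0.016 and 0.475 ± 0.0088 in COX-2-/- mice, 0.477 ± 0.024 and 0.463 ± 0.018 in heterozygous mice, and 0.502 ± 0.015 and 0.446 ± 0.0050 in COX-2 wild-type mice. For comparison, the mean over 24 mitochondrial ribosomal protein genes lay between 0.0908 and 0.199 in the hippocampus (median 0.126) and between 0.0890 and 0.142 in the cortex (median 0.122).

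**Figure D4:**
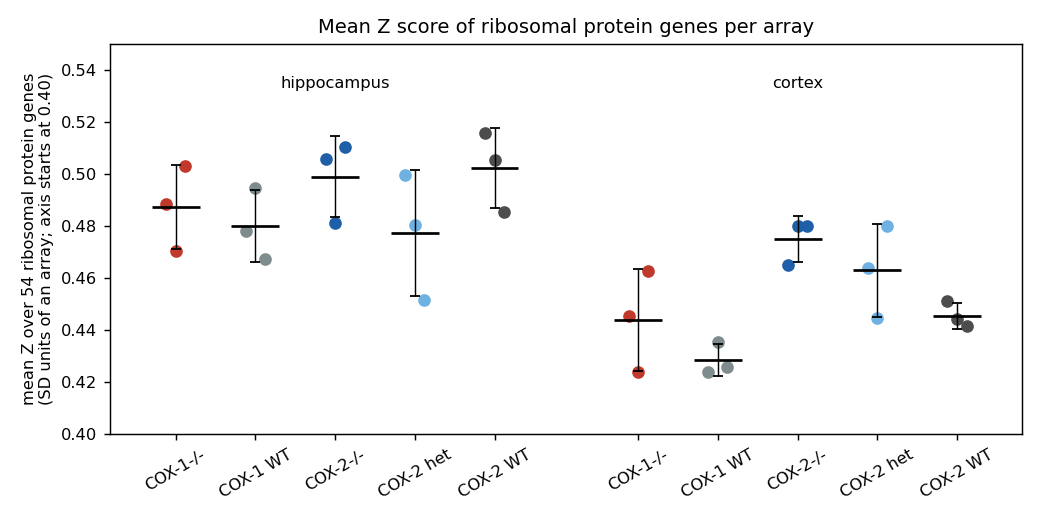
Mean Z over 54 ribosomal protein genes (SD units of an array) on each array, by region and genotype, with bars at the group mean and whiskers of 1 SD (n = 3), on an axis that starts at 0.40. The hippocampus arrays lie between 0.452 and 0.516 and the cortex arrays between 0.424 and 0.480.

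The 2 ways of calling gave different counts between regions. By the rule, 1 of 45 genes was called in COX-1-/- mice (Rpl9, against 7.62% of all genes tested), 0 of 45 in COX-1 wild-type mice (7.17%), 0 of 53 in COX-2-/- mice (4.27%), 2 of 53 in heterozygous mice (Rps19 and Rps26, 6.52%) and 1 of 53 in COX-2 wild-type mice (Rpl3, 7.51%). Of 45 genes tested with limma in COX-1-/- mice, 15 were higher in the hippocampus (33.3%, against 12.9% of all genes tested) and 3 were lower (6.67%, against 17.7%). In COX-1 wild-type mice 19 of 45 were higher (42.2%, against 18.1%) and 2 were lower (4.44%, against 15.5%). In the same fits limma called Nefl, the 1 neuron marker read, higher in the hippocampus (0.21 in COX-1-/- and 0.20 in COX-1 wild-type mice), and of 3 microglia markers C1qb lower in COX-1-/- mice (-0.14) and C1qc lower in COX-1 wild-type mice (-0.12). Of these 3 markers 2 lay lower and 1 higher in each of the 2 genotypes. In heterozygous COX-2 mice limma called C1qb and the astrocyte marker Aldoc higher in the hippocampus. There 2 of 3 microglia markers lay higher and 1 lower, and 2 of 4 astrocyte markers higher and 2 lower. Of 3 neuron markers 1 lay higher and 2 lower in these mice, and limma called 0. In COX-2 wild-type and COX-2-/- mice limma called 0 markers of these 3 cell types. The part of these markers in the results was not tested. The split depended on the scaling, since centring each array on its median gave 13 higher and 5 lower in COX-1-/- mice and 10 higher and 5 lower in COX-1 wild-type mice, and quantile normalization gave 18 and 3, and 22 and 1. The COX-2 line had fewer calls over all genes. There, 3 of 53 were higher (5.66%, against 4.81%) and 0 lower (3.15%) in wild-type mice, 3 of 53 were higher (5.66%, against 7.35%) and 1 lower (1.89%, against 6.97%) in heterozygous mice, and 0 were higher (0.593%) or lower (0.297%) in COX-2-/- mice, where 13 had an unadjusted p under 0.05 (24.5%, against 16.2% of all genes). In sign, 50 of 66 genes were higher in the hippocampus of COX-2 wild-type mice and 45 of 66 in that of COX-2-/- mice, against 33 of 66 in heterozygous mice, whose replicate 3 arrays are described above. The median differences were 0.0536, 0.0315 and -0.000012, against -0.000305, -0.00167 and -0.00547 over all genes. Under median centring, quantile normalization and the running median the first 2 stayed between 0.0244 and 0.0541, and that in heterozygous mice lay between -0.0118 and 0.00366. In these mice the split of calls was 3 higher and 2 lower with either centring or quantile normalization and 5 and 3 with the running median. The COX-1 fits used other probes and more arrays than the COX-2 fits, so counts of calls are not comparable between the lines. Leaving out 1 array gave 7 to 17 calls in place of 18 in COX-1-/- mice, with 7 without the cortex array of replicate 2 and 10 without the hippocampus array of replicate 3, and 11 to 16 in place of 21 in COX-1 wild-type mice, with 11 without the hippocampus array of replicate 2 and 13 without the cortex array of replicate 1.

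The direction was shared across genotypes more often than over all genes. Of 54 genes, 15 were higher in the hippocampus in all 5 genotypes (27.8%, against 7.48% of 4209 genes) and 2 were lower in all 5 (3.70%, against 7.51%). The 15 were Rpl3, Rpl4, Rpl5, Rpl6, Rpl7, Rpl10, Rpl10a, Rpl13, Rpl27, Rpl35a, Rplp0 and Rplp2 of the large subunit, where the last 2 belong to the stalk that recruits translation factors, and Rps19, Rps25 and Rps28 of the small subunit. The 2 were Rpl31 and Rps24. Rps28 and Rps24 had a mean Z below 0. Of the 45 genes with a mean Z above 0, 14 were higher in all 5 genotypes (31.1%, against 8.82% of 2018 genes). In that set 1 was lower in all 5 (2.22%, against 8.18%). These shares describe the same 30 arrays, and members and probes share arrays and may share membrane positions. Of 53 genes tested by limma in at least 1 comparison of regions, 26 were called higher in at least 1 genotype (49.1%, against 22.2% of 3649 genes), 13 in at least 2 (24.5%, against 6%) and 5 were called lower in at least 1 (9.43%, against 20.7%), and Rps26 was called in both directions.

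Rpl7, a large subunit protein, was the gene called higher in 3 genotypes. Over its probes outside the copied rows it lay at 0.291, 0.410 and 0.297 in hippocampus of COX-1-/- mice, against 0.182, 0.203 and 0.177 in cortex, and at 0.262, 0.327 and 0.294 in hippocampus of COX-1 wild-type mice, against 0.0495, 0.221 and 0.185 in cortex. The differences were 0.15 ± 0.040 and 0.14 ± 0.040 (SE, limma adjusted p = 0.00618 and 0.00623), and that in COX-2 wild-type mice, over all probes, was 0.13 ± 0.036 (adjusted p = 0.0426). No hippocampus array overlapped the cortex arrays in these genotypes. In COX-2-/- and heterozygous mice Rpl7 differed by 0.11 (adjusted p = 0.122) and 0.046 (0.418).

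Rpl9, a large subunit protein, had the highest difference between regions in COX-1-/- mice. It lay at 0.833, 0.742 and 0.907 in hippocampus and at 0.506, 0.541 and 0.561 in cortex (difference 0.29 ± 0.056, SE, limma adjusted p = 0.000237). In COX-1 wild-type mice it lay at 0.650, 0.823 and 0.644 in hippocampus and 0.537, 0.624 and 0.430 in cortex (0.18, adjusted p = 0.0167). In heterozygous COX-2 mice the sign was the opposite, with 0.651, 0.598 and 0.527 in hippocampus and 0.583, 0.587 and 0.709 in cortex (-0.034, adjusted p = 0.704). Rps14, described above, was likewise higher in hippocampus of COX-1-/- mice, at 0.260, 0.190 and 0.361 against 0.163, 0.0391 and -0.0129 in cortex (0.21, adjusted p = 0.00378), and of COX-1 wild-type mice (0.24, adjusted p = 0.000853), and lay lower there in heterozygous COX-2 mice (-0.086, adjusted p = 0.161).

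Rpl6, a large subunit protein, had the smallest adjusted p in COX-1 wild-type mice, at 0.366, 0.428 and 0.436 in hippocampus and 0.244, 0.235 and 0.213 in cortex (difference 0.18 ± 0.037, SE, limma adjusted p = 0.000434). Its values in COX-1-/- mice were 0.399, 0.336 and 0.421 in hippocampus and 0.250, 0.203 and 0.272 in cortex (0.14, adjusted p = 0.00408). The groups did not overlap in either genotype. Other genes called higher in COX-1-/- mice included Rps7 (0.19), Rpl10a (0.18), Rpl10 (0.15), Rpl13 (0.14), Rps19 (0.14) and Rplp1 (0.14), and in COX-1 wild-type mice Rpl35a (0.20), Rpl11 (0.16), Rps29 (0.14), Rpl34 (0.13), Rps12 (0.13) and Rps7 (0.13). Rps7 and Rpl11 are among the proteins that bind Mdm2 when ribosome assembly is disturbed.

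Rpl32 and Rps26 had no common direction. Over its probe outside the copied rows, Rpl32 lay at 0.879, 0.812 and 0.914 in hippocampus of COX-1-/- mice, against 1.06, 1.09 and 0.907 in cortex (-0.15, limma adjusted p = 0.0212), and at 0.873, 0.856 and 0.954 in hippocampus of COX-1 wild-type mice, against 1.07, 1.06 and 1.10 in cortex (-0.18, adjusted p = 0.00502). The same probe in heterozygous COX-2 mice lay at 1.01, 1.05 and 1.10 in hippocampus, against 0.832, 0.871 and 0.781 in cortex. Rps26 was lower in hippocampus of COX-1 wild-type mice (-0.10, adjusted p = 0.0478) and higher in that of heterozygous COX-2 mice (0.20, adjusted p = 0.00773), over different sets of probes. Rpl31 and Rpl39 were the other genes called lower in COX-1-/- hippocampus (-0.13 each), and Rpl21 was called lower in heterozygous hippocampus (-0.12, adjusted p = 0.0241).

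In heterozygous COX-2 mice Rps19, described above for its low cortex values, had the highest difference, with 0.681, 0.648 and 0.549 in hippocampus against 0.339, 0.432 and 0.423 in cortex (0.23 ± 0.045, SE, limma adjusted p = 0.00211). Rpl3 was higher in hippocampus of heterozygous mice (0.15, adjusted p = 0.0292) and of COX-2 wild-type mice, where it lay at 0.408, 0.351 and 0.311 in hippocampus and 0.172, 0.146 and 0.220 in cortex (0.18, adjusted p = 0.0229). Rpl23a was higher in COX-2 wild-type hippocampus, at 0.537, 0.581 and 0.521 against 0.388, 0.401 and 0.446 in cortex (0.13, adjusted p = 0.0265). The low cortex values of Rpl3 and Rpl23a in COX-2 wild-type mice are those that COX-2-/- cortex was set against above, so the 2 results share these arrays.

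**Figure D5:**
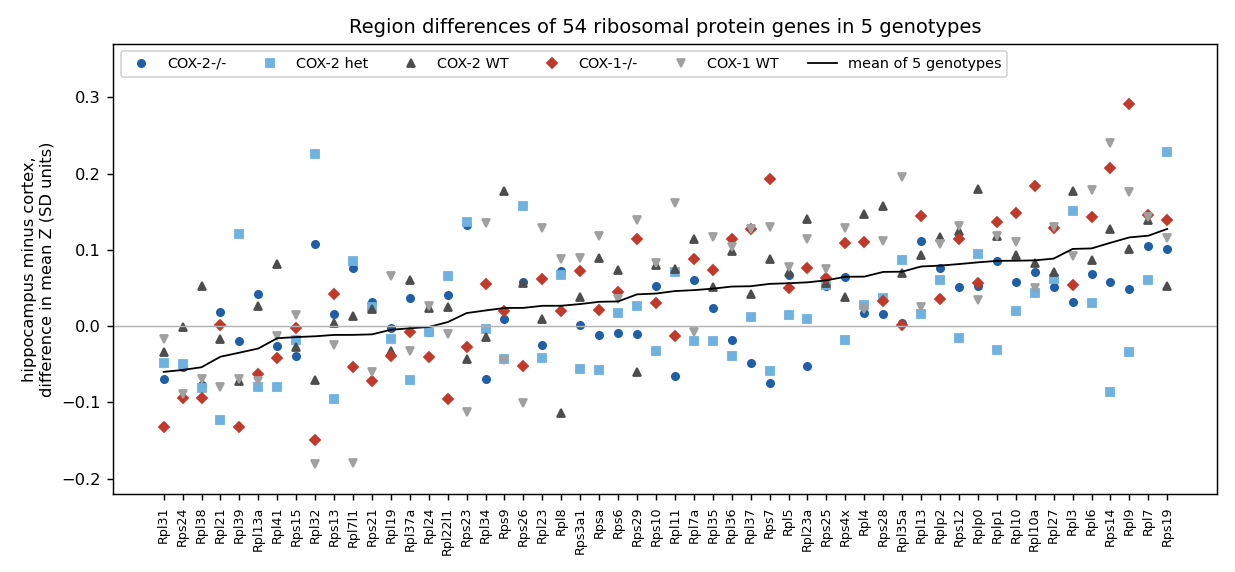
Hippocampus minus cortex difference in mean Z (SD units of an array) of 54 ribosomal protein genes in each of 5 genotypes, over the probes that could be compared in all of them, ordered by their mean, which the line joins. The mean runs upward to Rps19, and Rpl32 shows differences of both signs.

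The wild-type mice of the 2 lines differed in few ribosomal protein genes. In the cortex limma called 1 of 45, against 5.69% of all genes: Rpl32 lay at 0.876, 0.963 and 0.924 in COX-2 wild-type mice and at 1.07, 1.06 and 1.10 in COX-1 wild-type mice (-0.15 ± 0.044, SE, adjusted p = 0.0468). In the hippocampus it called 1 of 52, against 9.11% of all genes: Rpl38, a large subunit protein required in mouse embryos for the translation of some Hox mRNAs, lay at 0.195, 0.217 and 0.181 in COX-2 wild-type mice and at 0.0487, 0.0724 and 0.0674 in COX-1 wild-type mice (0.13 ± 0.036, SE, adjusted p = 0.0286). Both calls were lost when any 1 of the compared arrays was left out. The other differences in the cortex ran between -0.081 for Rps9, whose mean Z was below 0, and 0.14 for Rpl19. Those in the hippocampus ran between -0.13 for Rps14 and 0.18 for Rpl13a, whose mean Z was below 0.

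Genes that build ribosomes or govern their synthesis were measured beside them. Of 132 ribosome biogenesis genes listed 99 had a probe, and of 29 genes of the TOR pathway and the S6 kinases 13 had one. limma called 1 biogenesis gene in the hippocampus of COX-1-/- mice (of 42 tested, against 0.991% of all genes) and 1 in that of heterozygous COX-2 mice (of 42, against 3.86%), and 0 in the other 4 genotype comparisons. Mrto4, which takes part in assembly of the ribosomal stalk, was lower in COX-1-/- hippocampus, at 0.443 ± 0.032 against 0.702 ± 0.10 in wild-type mice (SD, n = 3 each, adjusted p = 0.0386). Bop1, a factor of large subunit maturation, was higher in heterozygous hippocampus, at 2.07 ± 0.049 against 1.85 ± 0.083 in wild-type mice (adjusted p = 0.0215). The rule also called Nhp2 (higher), Mrto4 (higher) and Rrp36 (lower) in COX-2-/- cortex, Nhp2 and Heatr1 (lower) in COX-1-/- hippocampus, Rrp15 and Rrp36 (higher) in COX-2-/- hippocampus, and Rrp15 (higher) and Rbm28 (lower) in heterozygous hippocampus.

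Mtor, the kinase at the head of the pathway that governs translation of ribosomal protein mRNAs, was the gene of its list called in a genotype comparison. In the hippocampus of heterozygous COX-2 mice it lay at 0.514 ± 0.026, against 0.0502 ± 0.039 in wild-type mice (SD, n = 3 each), a difference of 0.46 ± 0.066 (SE, z ratio 4.29, limma adjusted p = 0.00171). In the cortex the rule called it lower in COX-2-/- mice, at 0.0515 ± 0.045, and in heterozygous mice, at 0.0424 ± 0.078, against 0.217 ± 0.021 in wild-type mice (z ratio -1.82 for each), and limma did not call it (adjusted p = 0.152 and 0.159). In COX-2-/- hippocampus it lay at 0.208 ± 0.14 and was not called (adjusted p = 0.309). For both the COX-2-/- and the heterozygous effect, limma called hippocampus minus cortex higher for Mtor. Between regions, limma called Mtor lower in hippocampus of COX-1-/- and COX-1 wild-type mice and higher in that of heterozygous mice. Between the wild-type lines, limma called it lower in the cortex of COX-2 than of COX-1 wild-type mice. Of the ribosome-associated proteins, Fau, whose product holds a small subunit protein fused to a ubiquitin-like one, and Serbp1 were measured. Serbp1, which binds ribosomes at rest, was higher in hippocampus than in cortex of COX-1-/- mice (0.33, adjusted p = 6.9e-05) and COX-1 wild-type mice (0.35). In each genotype of the COX-2 line, over all probes, 1 of Fau and Serbp1 lay higher in hippocampus and 1 lower. There 1 of the 2 passed the filter, Serbp1 was not called, and limma called Fau higher in heterozygous mice.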

How the data were processed

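The authors hybridised radiolabelled cDNA to nylon cDNA arrays, read spot intensities with ArrayPro and computed from them, array by array, Z scores. The deposited values used here are these scores, in a table of 30 arrays, with no further normalization. Each array's median lay between -0.0721 and -0.0419. No sequencing depth applies, and 3 arrays per group limit the precision. Genes were named through the platform annotation (9663 probes with 1 symbol) and probes of a gene averaged. The copied first part of that table was left out wherever COX-1 cortex entered.

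limma 3.58.1, run in R 4.3.3 with version 1.17.8 of data.table, fitted group means with empirical Bayes moderation to the 15 cortex or hippocampus arrays (9 for COX-2 cortex), and for regions to 18 arrays of the COX-2 line or to all 30. P-values were adjusted (Benjamini-Hochberg) over all genes with a mean Z above 0 in the compared arrays, and any adjusted p in the text is from limma. The rule of the study, with the z ratio taken over the SD of all differences, was applied to the same values. Scripts were tested on simulated data. Sequences and figures were handled with pandas 2.3.3, numpy 2.4.6 and matplotlib 3.10.9 under Python 3.11.15.

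Named genes were those called in a genotype comparison, the 3 highest and lowest differences of each, up to 10 called between regions or lines in each direction, genes with probes on both sides of the z ratio, and Rpsa, Rpl23a, Rpl17, Rpl41, Rps15 and Rpl3, which are among those the paper lists. The symbol rule uses no measured value, but this group of genes and the lists were chosen with earlier results of these data known. Probes of Ptgs1 and Ptgs2, the deleted genes, were not found by symbol and are not analysed here. The marker lists had 3 of 10 neuron, 4 of 9 astrocyte, 1 of 11 oligodendrocyte, 3 of 11 microglia, 1 of 6 endothelium, 1 of 5 choroid plexus and 3 of 7 blood genes on the array. Alternatives covered centring, normalization, filters, the choice of probe, thresholds, row position, the wild-type arrays used, a replicate block and leaving out each array.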

Additional observations from a re-analysis of the deposited data

Results flagged for a closer look

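For 2 ribosomal protein genes the effect of heterozygous loss of COX-2 differed between regions by the test of the difference itself (limma, interaction of genotype and region in the 18 arrays of the COX-2 line). For Rps14 the effect in the hippocampus minus that in the cortex was -0.214 in SD units of an array (adjusted p = 0.0355), and the 3 heterozygous arrays lay below the 3 wild-type arrays in the hippocampus and above them in the cortex. For Rpsa it was -0.207 (adjusted p = 0.0155), again with opposite directions and no overlap in either region. Rps14 lost the call without a filter on mean Z and Rpsa kept it there, and both lost it without the heterozygous hippocampus array of replicate 3. Of all genes tested 5.29% had such a call, against 2 of 53 ribosomal protein genes. The cause was not tested.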

How the results depend on the processing

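None of the 52 single gene results followed through the alternatives changed direction. The median difference in COX-1-/- hippocampus, 0.00241 and within the spread of the arrays, turned to -0.00930 with the probe of the highest mean, -0.00187 against wild-type mice of both lines and -0.00742 with the running median. Of 644 alternative values for them, 469 kept the call and 175 kept the direction but not the call. Counts of ribosomal protein genes called by the rule moved as follows. In COX-1-/- cortex, 0 became 1 with only probes above background, 1 against wild-type mice of both lines and 2 after a running median over rows. In COX-2-/- cortex, 0 became 2 with the probe of the highest mean per gene, 3 with probes above background and 4 against both wild-type groups, where the median difference was 0.0520. In heterozygous cortex these 3 settings gave 2, 4 and 3 in place of 0. In COX-1-/- hippocampus, 1 became 0 with median centring, a z ratio beyond 2, adjusted Z test P or the running median, 3 with probes above background and 2 against both wild-type groups. In COX-2-/- hippocampus, 0 became 2 with the probe of the highest mean, 1 with probes above background and 1 with the running median. In heterozygous hippocampus, 1 became 2 after quantile normalization, 6 with the probe of the highest mean, 5 with probes above background and 2 against both wild-type groups, and the limma count of 0 became 4 with the 2 groups fitted alone, 1 with the replicate block and 2, of which 1 higher and 1 lower, with the running median. Between regions, the running median gave 1 in COX-2-/-, 8 in heterozygous and 11 in COX-2 wild-type mice in place of 0, 4 and 3, and the probe of the highest mean gave 11 and 5 in the heterozygous and wild-type mice. Between the wild-type lines in cortex, 1 became 0 with median centring or no filter and 2 with the running median or the replicate block. In hippocampus, 1 became 3 with median centring, 4 with no filter, 5 with the probe of the highest mean and 2 with the replicate block. For the COX-2-/- effect in hippocampus minus cortex, 0 became 2 with the probe of the highest mean and 1 with the replicate block, and for the heterozygous effect, 2 became 1 with no filter and 5 with the probe of the highest mean or the running median. For single probes, the running median gave 1 in COX-1-/- cortex in place of 0 and 1 in COX-1-/- hippocampus in place of 2. Leaving out 1 array at a time gave, by the rule, 0 to 1 genes in COX-1-/- cortex and hippocampus and in COX-2-/- hippocampus, 0 to 2 in COX-2-/- cortex and 1 to 2 in heterozygous hippocampus, and by limma 0 to 1 in COX-2-/- hippocampus. The median difference ran from 0.00204 to 0.0284 in COX-1-/-, 0.0315 to 0.0402 in COX-2-/- and 0.0166 to 0.0415 in heterozygous cortex, and from -0.0159 to 0.0109 in COX-1-/-, 0.000272 to 0.0183 in COX-2-/- and -0.0334 to -0.0143 in heterozygous hippocampus. Between regions the counts were 7 to 17 in COX-1-/-, 11 to 16 in COX-1 wild-type, 0 to 3 in COX-2-/-, 2 to 4 in heterozygous and 0 to 4 in COX-2 wild-type mice, between wild-type lines 0 in both regions, and for effects in hippocampus minus cortex 0 to 3 in COX-2-/- and in heterozygous mice. Probe counts ran from 0 to 1 in COX-1-/- cortex, 0 to 4 in COX-1-/- hippocampus, 1 to 4 in heterozygous cortex, 1 to 5 in COX-2-/- hippocampus and 4 to 7 in heterozygous hippocampus. Same-numbered arrays of mutant and wild-type mice of a region had r between -0.0685 and 0.125 (over 0.1 in 2 of 18 pairs), and those of the 2 regions of a genotype between -0.0378 and 0.211 (over 0.1 in 4 of 15), with no comparison over 0.1 in all 3 pairs, so the main fits treated the arrays as sharing only a number. Ttr, however, was lowest on the replicate 3 array in every hippocampus group except COX-1 wild type. The reason was not tested. With the replicate block the counts between regions were 19 in COX-1-/-, 25 in COX-1 wild-type, 0 in COX-2-/-, 6 in heterozygous and 3 in COX-2 wild-type mice. The interaction of genotype and region, the settings for single probes and the limma calls of genotype effects under other scalings were chosen after seeing the data. The most frequent distance between 2 probes of 1 gene was 44 rows, for 22 of 144 pairs. Whether row order follows position on the membrane was not checked. Causes of these changes were not tested, and levels near 0 lie near background.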
